A study of Mus musculus with 107 samples.

Results

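The genes described here make and handle the lipids of skin. They build fatty acids, desaturate and elongate them, activate them, store them in the neutral lipids of sebum, and turn them into the ceramides of the epidermal barrier. Of 39 genes listed for these roles by symbol, 36 had a probe set, out of 18193 genes named by a probe set of 1 gene. Acsl1, Awat2 and Soat1 were not analysed here. Each gene was represented by its probe set with the highest mean signal, which lay on array A for 29 genes and on array B for 7 (Acaca, Fads3, Elovl7, Acsl3, Far2, Cers3 and Abca12). No response to treatment entered this choice of probe set, but the list of genes was chosen with earlier results of these data known.

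Ear skin of mice was sampled 24 h after treatment and its RNA measured on a pair of Affymetrix arrays called A and B. The mustard animals carried 0.08 mg (0.5 µmol) of sulfur mustard, a blistering alkylating agent, in 5 µL of methylene chloride on the inside of the right ear. The pretreated animals had a drug in ethanol 15 min before the same mustard dose. The drug was 6.25 mg (50.3 µmol in 10 µL) of dimercaprol, a dithiol chelator, in 6 ears. It was octylhomovanillamide, a vanilloid, in 5 ears, with 0.6 mg as the treatment label and 0.585 mg (1.995 µmol in 30 µL) as the protocol. It was 1.34 mg (3.74 µmol in 20 µL) of indomethacin, a cyclooxygenase inhibitor, in 6 ears. Mustard alone was given to 5 ears, of animals 1, 3, 5, 36 and 37. The control ears were 21 left ears with methylene chloride only, from animals of all these sets. Animals numbered apart from these had no mustard and were run on array A alone. They gave 4 dimercaprol, 5 octylhomovanillamide, 4 indomethacin, 3 ethanol and 5 naive ears, the naive ones from 3 animals. The ethanol ears were left ears of animals 507, 515 and 520, whose right ears had dimercaprol, indomethacin and octylhomovanillamide in that order. Doses and volumes differed between the drugs, mustard alone is labelled without an ethanol pretreatment, and strain, sex and age are not given in the sources used here.

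Fatty acids are made in the cytosol. ATP citrate lyase supplies acetyl-CoA, malic enzyme supplies NADPH, acetyl-CoA carboxylase makes malonyl-CoA and fatty acid synthase joins the units to palmitate. Sebaceous glands turn the products into triglycerides, wax esters and cholesterol esters, and keratinocytes of the upper epidermis link very long acyl chains to sphingoid bases, making ceramides and glucosylceramides that seal the barrier. In whole ear skin, fewer cells of a type and less RNA per cell cannot be told apart.

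The arrays differed in brightness, with trimmed mean signals of 66.9 to 268 on array A and 18.8 to 52.1 on array B. Signals were scaled to a trimmed mean of 500 and are given on that linear scale, and differences are on the log2 scale of scaled signal plus 16. A gene was called where limma's Benjamini-Hochberg adjusted p over all probe sets of its array was below 0.05. All 36 genes passed the minimum mean signal of 100. Mustard ears 5 and 37 stood apart. Their array A trimmed means were 86.3 and 66.9, and their log2 ratios of 3' to 5' Gapdh signal, a measure of RNA integrity, were 0.63 and 0.78. Total counts of called genes that rest on the mustard ears are therefore given with and without these ears, as are the folds of the genes that fell most.

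Mustard ears had less mRNA for the central steps of fatty acid synthesis, for particular elongases and acyl-CoA synthetases, and for parts of the sebum programme. Of the 36 genes, 17 fell, 5 rose and 14 were not called. All 4 fatty acid synthesis genes fell, as did 4 of 7 sebum genes and 3 of 6 elongases. Among 9 ceramide genes 2 rose and 2 fell. The background was high, since 42.9% of all probe sets on array A and 26.1% on array B were called in this comparison (23.7% and 13.2% lower, 19.2% and 12.9% higher). The members' shares were 65.5% on array A (51.7% lower), 42.9% of the 7 genes on array B (28.6% lower) and 61.1% over both arrays (47.2% lower). The gene list was chosen with earlier results of these data known, so these shares are a description and not independent evidence. The median difference was -0.22 over the 36 genes, against -0.01 over all probe sets of array A and 0.14 over those of array B.

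Without ears 5 and 37, 12 genes were lower and 2 higher. With array brightness as a covariate 12 were lower and 1 higher. The background shares above are from the fit as reported, and those under these settings are not given here. Acly, Me1, Acaca, Fasn, Scd2, Elovl5, Elovl6, Acsbg1, Acsl4, Dgat2, Far2 and Mc5r stayed lower and called under every alternative that tested them (12 for Mc5r, 13 for the others) and when any 1 ear was left out. None of the 5 rises did. With arrays not rescaled, all probe sets shifted by a median of -0.60 on array A and -0.36 on array B, 27 genes were called lower and none higher, and the 5 rises turned negative.

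**Figure D1:**
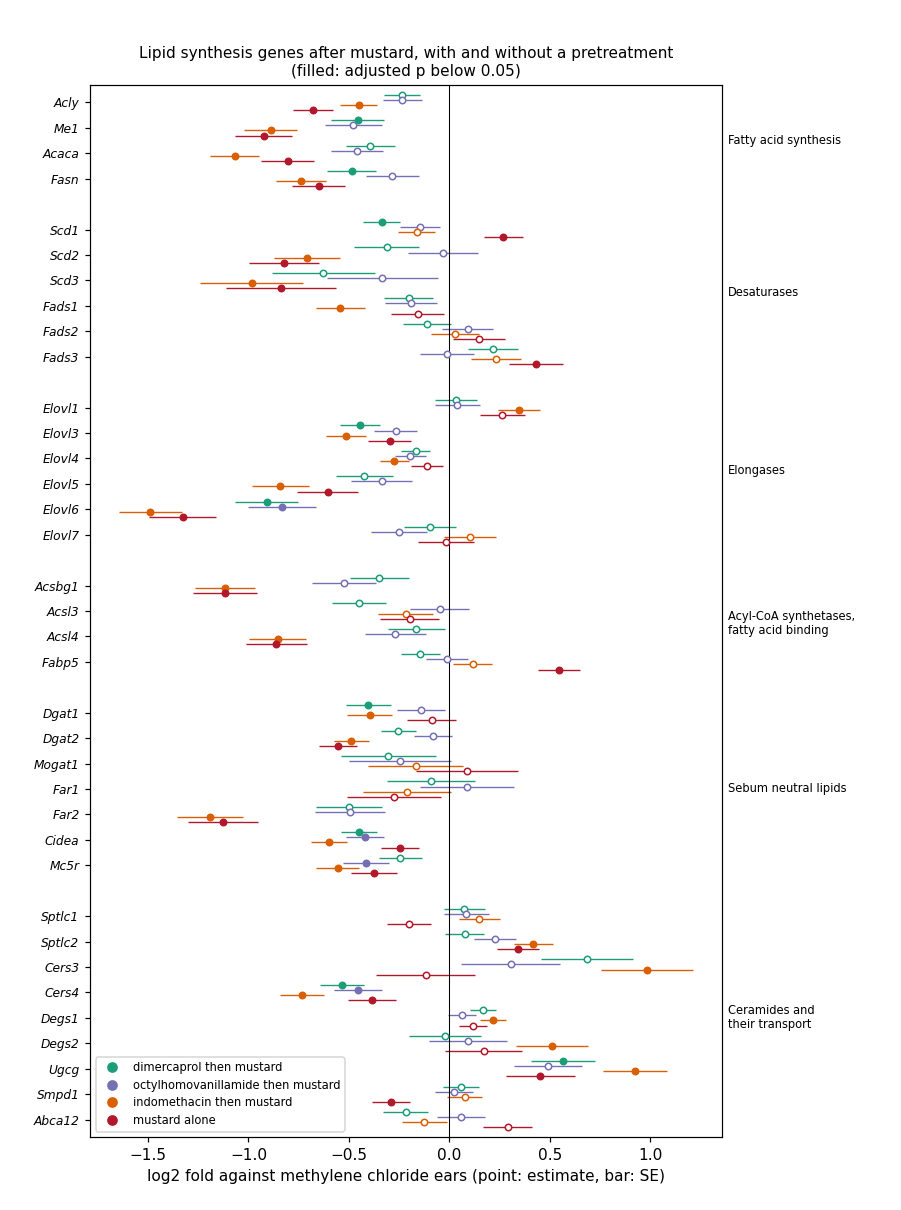
Log2 fold against methylene chloride ears for each of the 36 genes, by role, in ears with a drug then mustard and with mustard alone. Points are limma estimates, bars are SE and filled points have an adjusted p below 0.05; Elovl6, Acsbg1 and Far2 lie furthest to the left for mustard alone, at -1.33, -1.12 and -1.13, and the positive values of Scd1, Fads3, Fabp5, Sptlc2 and Ugcg turned negative when arrays were not rescaled.

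The first genes of the pathway came down together. Acly, the ATP citrate lyase, had signals of 2875, 2178, 2708, 4177 and 2209 in mustard ears 1, 3, 5, 36 and 37, against a lowest of 3465, a median of 4390 and a highest of 6236 in methylene chloride ears. Ear 36 alone reached the control range. Acly fell by 0.68 ± 0.10 (SE; limma adjusted p = 4.23e-07). Me1, the cytosolic malic enzyme, had 1294, 2448, 2263, 3134 and 1916 in the same order of mustard ears, against 3116, 3968 and 6082 as lowest, median and highest control. Again only ear 36 overlapped the controls, at their low end, and Me1 fell by 0.92 ± 0.14 (limma adjusted p = 1.23e-06). Acaca, the cytosolic acetyl-CoA carboxylase and the committed step, had 2358, 1796, 2901, 3231 and 1996 in mustard ears, against 2676, 4215 and 6091 in controls. Ears 5 and 36 overlapped the lowest controls, and Acaca fell by 0.81 ± 0.13 (limma adjusted p = 5.22e-06). A second, dimmer Acaca probe set on array A was not called (-0.20). Fasn, the synthase itself, fell by 0.65 ± 0.13, with a mean of 2291 ± 868 in mustard ears and 3468 ± 599 in methylene chloride ears (SD, n = 5 and 21).

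**Figure D2:**
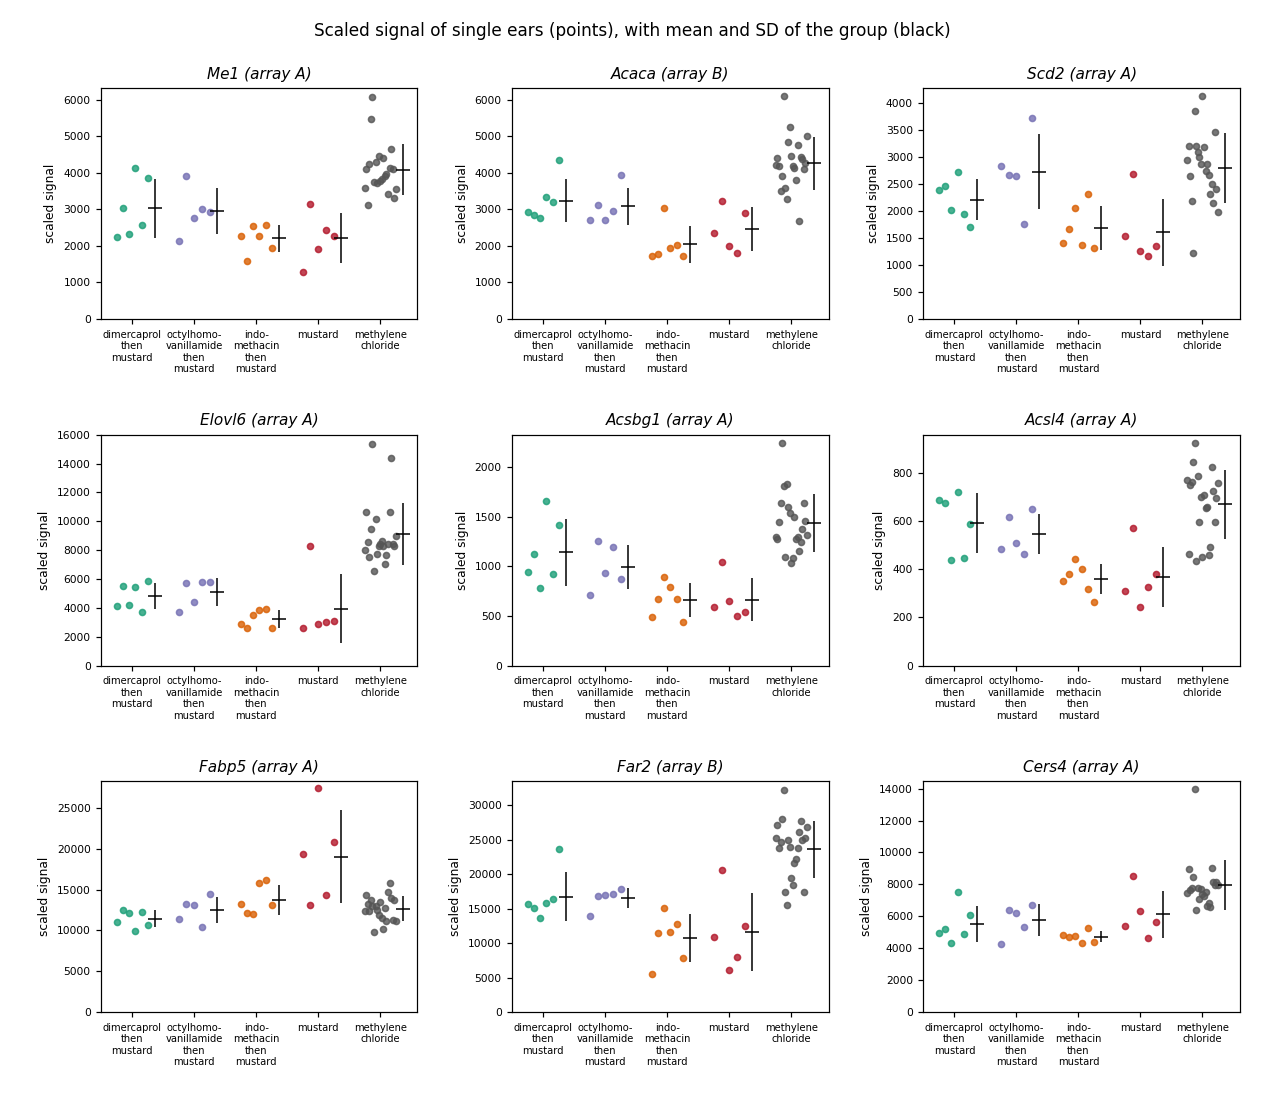
Scaled signal of single ears for 9 of the genes in the 3 pretreated groups, mustard ears and methylene chloride ears, with the group mean and SD beside the points and axes that start at 0. For Elovl6, 4 mustard ears lie between 2575 and 3059 and ear 36 at 8260, while methylene chloride ears run up to 15332; the higher Fabp5 in mustard ears turned lower when arrays were not rescaled.

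Desaturases, which put double bonds into acyl chains, did not move as 1 group. Scd2, a stearoyl-CoA desaturase, had 1532, 1163, 1357, 2682 and 1263 in mustard ears, against 1226, 2866 and 4116 as lowest, median and highest control. Ear 36 lay close to the control median and ear 3 below every control, and Scd2 fell by 0.82 ± 0.17 (limma adjusted p = 0.000177). Scd3, a desaturase of sebaceous glands in mice, had 1415, 422, 1135, 1979 and 1148 in mustard ears, against 1058, 1917 and 6079 in controls. Only ear 3 was below the control range. Scd3 fell by 0.84 ± 0.28 (limma adjusted p = 0.0122), a call lost without mustard ear 3, without ears 5 and 37, and with the Gapdh ratio or brightness as a covariate.

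Fads3, a member of the fatty acid desaturase family that acts on sphingoid bases, had 1121, 1427, 1627, 1627 and 1257 in mustard ears, against 690, 1093 and 1340 in controls. Ears 3, 5 and 36 were above every control. Fads3 rose by 0.43 ± 0.14 (limma adjusted p = 0.0149) but was not called without ear 5, without ears 5 and 37, with the Gapdh ratio or brightness as a covariate, or with a fixed animal block (limma adjusted p = 0.370), and turned to -0.10 without rescaling. Scd1, the main skin stearoyl-CoA desaturase, was called higher by 0.27 at the probe set used and lower by 0.64 at its second probe set, so no direction is given for it here. The Scd genes are close paralogs, and cross-hybridization between them was not tested. Fads1 (-0.16) and Fads2 (0.15), of polyunsaturated fatty acid synthesis, were not called.

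Elongases add carbon pairs to acyl chains of particular lengths. Elovl6, which takes palmitate to stearate, had 2575, 2989, 3059, 8260 and 2862 in mustard ears, against 6564, 8402 and 15332 as lowest, median and highest control. The other 4 ears were far below every control and ear 36 sat near the control median. Elovl6 fell by 1.33 ± 0.17 (limma adjusted p = 3.73e-08), a 2.51-fold decrease (-1.16 without ears 5 and 37), and its second array A probe set fell by 1.35. A probe set for it on array B did not follow, at 0.05. Elovl5, which elongates polyunsaturated chains, had 1840, 1605, 2274, 3527 and 2381 in mustard ears, against 2359, 3345 and 5785 in controls. Ear 36 was above the control median and ear 37 just inside the range, and Elovl5 fell by 0.60 ± 0.15 (limma adjusted p = 0.00125).

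Elovl3, an elongase of sebaceous glands and hair follicles in mice, had 7309, 5085, 7717, 8259 and 5508 in mustard ears, against 6386, 7981 and 11948 in controls. Ears 3 and 37 were below the controls and the other ears inside their range. Elovl3 fell by 0.30 ± 0.11 (limma adjusted p = 0.0211), a call lost without ear 3 or ear 37 and with the Gapdh ratio or brightness as a covariate. Elovl1 and Elovl4, which make very long chains, were not called, at 0.26 and -0.11. Elovl7 was not called at its brightest probe set (-0.02), but 4 of its 5 other probe sets were called lower, by up to 1.07.

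The promoters of Fasn, Acsbg1, Elovl5 and Elovl6 are shown because these genes fell under every alternative and because their sequences differ in short motifs near the start site. Each is 250 bases before to 50 bases after the start of a RefSeq transcript (GRCm38.p6), read 5' to 3' along the gene. Capitals mark CCAAT or its reverse complement ATTGG, bound by the factor NF-Y, and the E-box CACGTG, bound by USF factors among others. Fasn lies at chr11:120824498-120824797 on the minus strand, Acsbg1 at chr9:54661836-54662135 on the minus strand, Elovl5 at chr9:77917115-77917414 on the plus strand and Elovl6 at chr3:129532136-129532435 on the plus strand.
Fasn: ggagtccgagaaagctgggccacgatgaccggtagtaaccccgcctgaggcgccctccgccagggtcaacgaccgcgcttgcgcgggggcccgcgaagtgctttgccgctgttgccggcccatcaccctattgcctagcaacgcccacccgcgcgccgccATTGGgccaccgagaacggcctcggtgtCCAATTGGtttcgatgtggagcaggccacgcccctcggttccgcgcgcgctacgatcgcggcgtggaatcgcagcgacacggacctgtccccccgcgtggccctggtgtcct
Acsbg1: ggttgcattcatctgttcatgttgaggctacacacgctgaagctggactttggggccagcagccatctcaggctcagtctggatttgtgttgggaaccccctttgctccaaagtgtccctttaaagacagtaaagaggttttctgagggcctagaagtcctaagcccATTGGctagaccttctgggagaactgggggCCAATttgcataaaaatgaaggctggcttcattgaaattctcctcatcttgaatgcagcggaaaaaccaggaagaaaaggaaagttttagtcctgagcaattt
Elovl5: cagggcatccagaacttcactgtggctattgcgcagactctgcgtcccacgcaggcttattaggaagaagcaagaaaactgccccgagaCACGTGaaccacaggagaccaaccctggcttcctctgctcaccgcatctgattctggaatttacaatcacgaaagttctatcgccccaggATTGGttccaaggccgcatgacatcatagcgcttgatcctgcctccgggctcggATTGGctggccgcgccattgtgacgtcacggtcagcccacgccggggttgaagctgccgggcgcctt
Elovl6: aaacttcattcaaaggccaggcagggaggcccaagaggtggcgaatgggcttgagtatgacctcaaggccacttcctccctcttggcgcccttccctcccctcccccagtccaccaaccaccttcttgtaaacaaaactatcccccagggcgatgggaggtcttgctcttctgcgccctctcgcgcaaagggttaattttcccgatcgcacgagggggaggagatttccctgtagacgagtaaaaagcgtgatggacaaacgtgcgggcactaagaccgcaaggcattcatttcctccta
The Fasn window held 3 CCAAT boxes, at -90, -62 and -59, with the last 2 overlapping on opposite strands. Acsbg1 had 2, at -83 and -53, and Elovl5 had 2, at -71 and -17, with an E-box at -161. The Elovl6 window held none of these letters. Of the listed genes, 30 matched a RefSeq promoter in the table used. A CCAAT box on either strand was present in 17 of them (56.7%), against 41.1% of 27025 genes with a window. An E-box was present in 3 (10%), against 8.09%. A GC box, GGGCGG on either strand, was present in 20 (66.7%), against 38.2%. Acsl1, Awat2 and Soat1, whose expression was not analysed here, are among the 30, each with a CCAAT box and a GC box. One form of the sterol regulatory element was in none of the 30, against 0.0999% of all genes, and the direct repeat bound by PPAR and RXR in none, against 0.0481%. These matches describe letters in the windows and were not tested against expression.

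Acyl-CoA synthetases activate fatty acids with coenzyme A. Acsbg1, which activates very long chains, had 588, 496, 544, 1042 and 647 in mustard ears, against 1031, 1374 and 2239 as lowest, median and highest control. Ear 36 touched the bottom of the control range and the other 4 ears lay well below it. Acsbg1 fell by 1.12 ± 0.16 (limma adjusted p = 3.11e-07) and was at -1.05 without ears 5 and 37. Acsl4, which prefers arachidonate, had 310, 326, 381, 573 and 244 in mustard ears, against 433, 699 and 925 in controls. Its pattern over ears was the same, with only ear 36 inside the control range, and it fell by 0.86 ± 0.15 (limma adjusted p = 1.33e-05). Acsl3 was not called (-0.20).

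Fabp5, the epidermal fatty acid binding protein, went the other way. It had 19363, 14350, 20853, 13116 and 27423 in mustard ears, against 9772, 12739 and 15862 as lowest, median and highest control. Ears 1, 5 and 37 were above every control, and ears 3 and 36 inside the control range. Fabp5 rose by 0.55 ± 0.10 (limma adjusted p = 4.45e-05). The value was 0.29 without ears 5 and 37, still called, and -0.09, not called, without rescaling.

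Among genes of sebum lipids, Dgat2, which makes triglyceride from diacylglycerol, had 4131, 4902, 3758, 5354 and 4369 in mustard ears, against 5505, 6613 and 7739 as lowest, median and highest control. It was the only gene of the 36 with no overlap between mustard and control ears, where 3.96% of all probe sets on array A and 1.81% on array B did not overlap. Dgat2 fell by 0.56 ± 0.09 (limma adjusted p = 6.16e-06). Far2, a fatty acyl-CoA reductase that makes the alcohols of wax esters, had 10963, 8052, 12481, 20634 and 6029 in mustard ears, against 15574, 24734 and 32220 in controls. Ear 36 lay within the control range and the others below it. Far2 fell by 1.13 ± 0.17 (limma adjusted p = 2.54e-06) and was at -0.93 without ears 5 and 37.

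Mc5r, the melanocortin receptor of sebaceous glands, had 182, 177, 189, 226 and 224 in mustard ears, against 186, 264 and 376 in controls. These are low signals, with ears 1 and 3 just below the controls, and Mc5r fell by 0.37 ± 0.11 (limma adjusted p = 0.00730). Cidea, a lipid droplet protein of sebocytes, fell by 0.24 ± 0.10, a call lost when any 1 of mustard ears 1, 3, 5 or 37 was left out. Dgat1, the other triglyceride synthase, was not called (-0.09), while a second probe set for it on array B was called higher by 0.65. Mogat1 (0.09) and Far1 (-0.27) were not called.

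Ceramide genes showed small changes in both directions at the probe sets used. Sptlc2, a subunit of serine palmitoyltransferase, the first step, had 741, 623, 690, 631 and 756 in mustard ears, against 417, 525.7 and 708 as lowest, median and highest control. Ears 1 and 37 were above every control and the others in the upper part of the range. Sptlc2 rose by 0.34 ± 0.10 (limma adjusted p = 0.00675), a call lost without ears 5 and 37 and with the Gapdh ratio or brightness as a covariate, and turned to -0.27 without rescaling. On array B, 1 further Sptlc2 probe set was called higher (0.94) and 1 was not called (0.20). Cers4, a ceramide synthase for long acyl chains that is active in sebaceous glands of mice, had 5395, 4642, 5663, 8545 and 6345 in mustard ears, against 6417, 7701 and 13990 in controls. Ear 36 was above the control median and the other 4 ears below every control, and Cers4 fell by 0.39 ± 0.12 (limma adjusted p = 0.00726). This call was lost without ear 3, without ears 5 and 37, with brightness as a covariate and under a fixed animal block. The other 2 Cers4 probe sets were also called lower, with larger changes of -1.02 and -0.61.

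Smpd1, the acid sphingomyelinase that releases ceramide, had 2956, 3362, 2235, 2640 and 2005 in mustard ears, against 2344, 3230 and 4094 in controls. The ears below the control range were 5 and 37, the ears with the skewed Gapdh ratio. Smpd1 fell by 0.29 ± 0.10 (limma adjusted p = 0.0123), was not called without ears 5 and 37, and turned to 0.08 under a fixed animal block. A second Smpd1 probe set on array B was not called (0.12). Ugcg, the glucosylceramide synthase, rose by 0.45 ± 0.17, a call lost without ear 1, 3 or 37, under a fixed animal block or with brightness as a covariate, and turned to -0.15 without rescaling. Another Ugcg probe set was called higher (0.66) and a further one was not called (0.50). Sptlc1, Cers3, Degs1, Degs2 and the lipid transporter Abca12 were not called, at -0.20, -0.12, 0.12, 0.17 and 0.29.

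Genes around these pathways were examined by the same rule of 1 probe set a gene, against the shares of all probe sets given above. These lists were also chosen with earlier results known, and those shares are for the fit with all mustard ears. Of 18 measured lipogenic regulators 11 fell and 1 rose, with a median of -0.47. The 3 with the smallest adjusted p were Rxra at -1.14 and Ppara at -1.64, nuclear receptors of lipid metabolism, and Mbtps1 at -0.64, a protease that activates SREBP. Srebf1, the SREBP that drives fatty acid synthesis, fell by 0.66, and Ppard, a further receptor, was the regulator that rose, by 1.02 (both chosen after their values were seen). Of 23 other fatty acid and acyl-CoA genes 15 fell and 2 rose, led by the mitochondrial citrate carrier Slc25a1 (-0.87), the dehydratase Hacd2 (-0.61) and the acetyl-CoA synthetase Acss2 (-0.89).

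Of 25 other glycerolipid and lipid droplet genes 10 fell and 2 rose. Agpat4, an acyltransferase (-1.30), Lpl, the lipoprotein lipase (-1.20), and Gpam, the first acyltransferase of triglyceride synthesis (-0.86), had the smallest adjusted p. Of 30 other sphingolipid and acylceramide genes 19 fell and 1 rose, with a median of -0.51. The ceramidases Acer3 (-1.21) and Asah1 (-0.66) and the neutral sphingomyelinase Smpd3 (-1.01) led this list. Of 25 fatty acid oxidation genes 12 fell and 3 rose, with a median of -0.28. Cpt1c (3.17), a carnitine palmitoyltransferase relative, and the peroxisomal thiolase Acaa1b (1.33) rose, and the peroxisomal enzyme Hsd17b4 (-0.99) fell. Without mustard ears 5 and 37 the falls and rises were 7 and 2 of 18 regulators, 8 and 2 of 23 fatty acid genes, 8 and 0 of 25 glycerolipid genes, 13 and 0 of 30 sphingolipid genes, and 10 and 3 of 25 oxidation genes.

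Marker genes of skin cell types were set beside the shares of all probe sets. With all mustard ears, 23.7% were called lower and 19.2% higher on array A, and 13.2% and 12.9% on array B. Of 7 measured sebocyte markers 4 fell (Defb6, Lrig1, Prdm1 and Plin5) and Krt79, Cyp2e1 and Mgst1 were not called. The summed signal of the 6 on array A was 19270 to 26341 in mustard ears, against 22940 to 32865 in methylene chloride ears. Of 9 dermal adipocyte markers with a mean of at least 100, 3 fell (Lpl, Plin4 and Fabp4). All 9 activated keratinocyte markers rose, with a median of 4.19, and 5 of 9 neutrophil markers rose and 1 fell. Of 13 suprabasal keratinocyte markers 4 rose and 3 fell, of 8 basal ones 2 rose and 4 fell, and of 11 macrophage markers 4 rose. Hair follicle and cartilage markers held 1 fall each, of 12 and 8, and no skeletal muscle or fibroblast marker was called, of 12 and 7. No marker was at 0 in any ear. Without ears 5 and 37, 4 sebocyte and 3 adipocyte markers were still lower, 9 activated keratinocyte and 5 neutrophil markers higher, with 3 suprabasal markers higher and 2 lower, 4 basal ones lower, 3 macrophage ones higher, 1 hair follicle one lower and no cartilage one called. For the fit without those ears, the shares of all probe sets are not given here. The part of cell numbers in the fall of the lipid genes was not tested.

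Of the 5 mustard ears, ear 36 deviated least from the controls in the lipid genes and in the activated keratinocyte and neutrophil markers. The median over the 36 genes of its deviation from the control mean was -0.06, against -0.25, -0.35, -0.25 and -0.29 in ears 1, 3, 5 and 37. Its activated keratinocyte markers summed to 28192, against 103763 to 121355 in the other mustard ears. Neutrophil markers summed to 5673 in ear 36, against 31746 to 41252 in the other mustard ears. Its Gapdh ratio was -0.05. The medians of methylene chloride ears ran between -0.18 and 0.24.

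**Figure D3:**
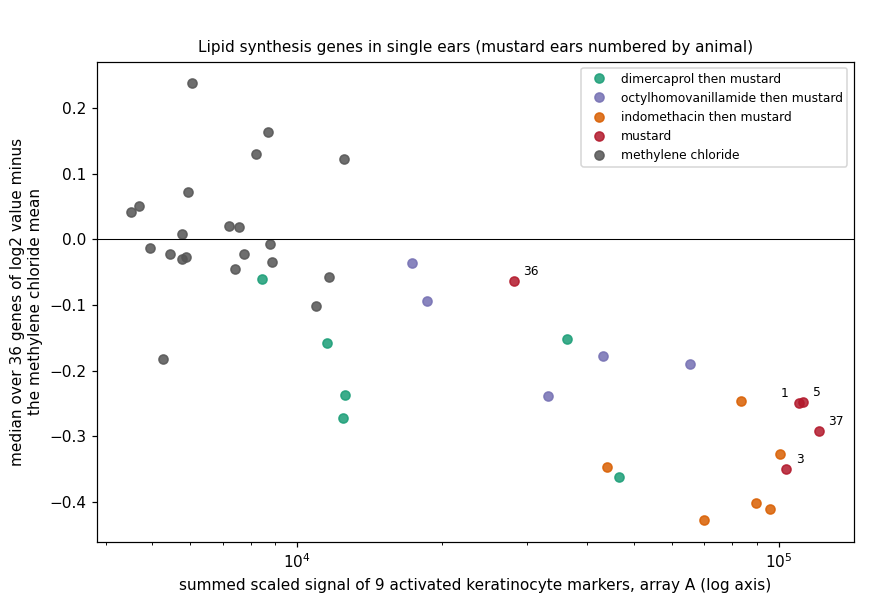
Each point is 1 ear, with the summed scaled signal of 9 activated keratinocyte markers on a log axis across and the median log2 deviation of the 36 lipid genes from the methylene chloride mean on the vertical axis. Mustard ear 36 lies at -0.06 and 28192 and the other mustard ears between -0.25 and -0.35, at 103763 to 121355; indomethacin ears reach down to -0.43, and no test was made on this plot.

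After indomethacin and mustard the same pathways were low. Against methylene chloride, 19 of the 36 genes fell and 6 rose, on a background of 36% of probe sets on array A (19.7% lower, 16.3% higher) and 12.8% on array B (7.09% lower, 5.68% higher). Acly, Me1, Acaca, Scd3, Elovl3, Elovl5, Elovl6, Acsbg1, Acsl4, Dgat2, Far2, Cidea, Mc5r and Cers4 stayed lower under every alternative and when any 1 ear was left out. Elovl6 had a lowest of 2596, a median of 3158 and a highest of 3948 in indomethacin-pretreated ears, against 6564, 8402 and 15332 in methylene chloride ears. The groups did not overlap, and Elovl6 fell by 1.49 ± 0.16 (limma adjusted p = 7.22e-10). Acaca fell by 1.07 ± 0.12, with 1718, 1864 and 3050 in pretreated ears, and ear 18 alone reached the controls. Me1, Fasn, Elovl5, Acsbg1, Far2, Cidea and Cers4 were also below every control ear, and Cers3 above. With Elovl6 these are 9 of 36 genes, where 4.9% of all probe sets on array A and 1.78% on array B did not overlap.

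The rises here were in ceramide genes and Elovl1. Ugcg rose by 0.92 ± 0.16, Cers3, the ceramide synthase of barrier acylceramides, by 0.98 ± 0.23, and the dihydroceramide desaturases Degs1 and Degs2 by 0.22 and 0.51. Sptlc2 rose by 0.42 and Elovl1 by 0.35. None of the 6 rises held under every alternative. Cers3 had 4201, 4547 and 6911 as lowest, median and highest in indomethacin-pretreated ears, against 3967, 3903, 2298, 1522 and 1066 in mustard ears 1, 3, 5, 36 and 37. All pretreated ears were above all mustard ears for Cers3. For Cidea they were below all mustard ears, at 3164 to 3959 against 3990 to 5751, without a call. Between these groups 1.19% of all probe sets on array A and 1.74% on array B did not overlap.

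Set directly against mustard ears, indomethacin pretreatment changed 2 genes, on a background of 1.87% on array A (1.21% higher, 0.659% lower) and 3.17% on array B (2.39% higher, 0.777% lower). Cers3 was higher by 1.10 ± 0.30 (limma adjusted p = 0.0320) and Scd1 lower by 0.43 ± 0.12 (limma adjusted p = 0.0488) at the probe set used, which turned to 0.13 without rescaling. The second Scd1 probe set was not called (-0.05). No gene was called without ears 5 and 37, with brightness as a covariate or under a fixed animal block. Leaving out 1 ear moved the count between 0 and 5. It was 0 without indomethacin ear 18 or mustard ear 5 or 37, 1 without indomethacin ear 16, 17, 19, 21 or 22, and 5 without mustard ear 1 or 3.

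After dimercaprol and mustard, calls among the lipid genes against mustard alone were about as frequent as over all probe sets, and none held under a fixed animal block or with brightness as a covariate. Of the 36 genes 7 were higher and 3 lower than in mustard ears, on a background of 26.9% of probe sets on array A (15.8% higher, 11.1% lower) and 16.5% on array B (9.37% higher, 7.11% lower), so that the members' share of 27.8% is near that of all probe sets. Acsbg1 had 782, 1036 and 1662 as lowest, median and highest in dimercaprol-pretreated ears, against 588, 496, 544, 1042 and 647 in mustard ears 1, 3, 5, 36 and 37. Only mustard ear 36 overlapped the pretreated ears, and Acsbg1 was higher by 0.77 ± 0.19 (limma adjusted p = 0.00259). Acsl4 was higher by 0.70 ± 0.19 and Acly by 0.44 ± 0.12 (limma adjusted p = 0.00436 and 0.00484). Me1 (0.47), Dgat2 (0.30), Far2 (0.63) and Smpd1 (0.35) were also higher.

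Lower than in mustard ears were Fabp5, Scd1 and Abca12, the keratinocyte lipid transporter. Fabp5 had 9878, 11598 and 12467 as lowest, median and highest in dimercaprol-pretreated ears, below all 5 mustard ears, and differed by -0.69 ± 0.13 (limma adjusted p = 0.000119). The Scd1 probe set used did not overlap either, where 8.28% of all probe sets on array A and 5.26% on array B did not. Scd1 was lower by 0.61 at the probe set used (its second one was at 0.22, not called) and Abca12 by 0.51, and without rescaling all 3 differences were positive, at 0.22 for Fabp5, 0.31 for Scd1 and 0.07 for Abca12. These calls depend on the mustard ears. Without ears 5 and 37, 3 of the 36 genes were called (1 higher, 2 lower), and leaving out mustard ear 37 or dimercaprol ear 9 gave 6.

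**Figure D4:**
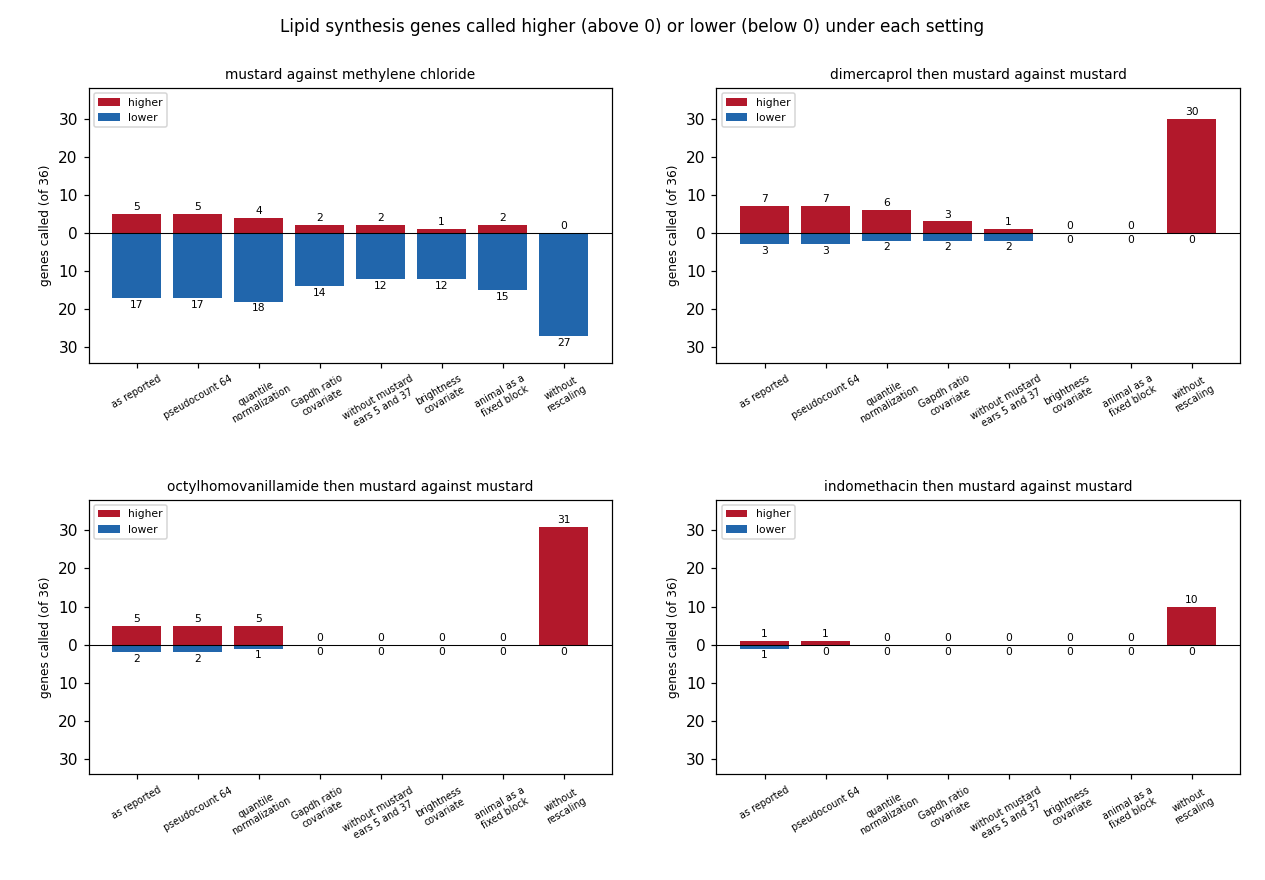
Number of the 36 genes called higher (above 0) and lower (below 0) in mustard against methylene chloride and in each pretreated group against mustard, under 8 settings. In mustard against methylene chloride 12 to 27 genes were lower in each setting; in dimercaprol then mustard against mustard the counts run from 0 with brightness as a covariate to 30 higher without rescaling.

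Octylhomovanillamide before mustard was set against mustard ears in the same way, with 5 genes higher and 2 lower. The background was 17.1% on array A (10.6% higher, 6.54% lower) and 9.57% on array B (6.55% higher, 3.02% lower). The members' shares were 24.1% on array A and 0% of the 7 genes on array B. Over both arrays it was 19.4%, near the share of all probe sets on array A. Scd2 had 2830, 2670, 2643, 1757 and 3712 in pretreated ears 27, 28, 29, 30 and 33, against 1532, 1163, 1357, 2682 and 1263 in mustard ears. All 5 pretreated ears were above 4 of the mustard ears, and only mustard ear 36 overlapped them. Scd2 was higher by 0.79 ± 0.22 (limma adjusted p = 0.0120). Dgat2 had 6719, 5638, 5176, 5960 and 7912 in the same pretreated ears and was higher than in mustard ears by 0.47 ± 0.12 (limma adjusted p = 0.00587). Acly (0.44), Acsbg1 (0.59) and Acsl4 (0.59) were higher too, while Fabp5 (-0.56) and the Scd1 probe set used (-0.41; the second at 0.48, not called) were lower and turned positive without rescaling, at 0.18 and 0.32. No gene was called without ears 5 and 37, with the Gapdh ratio or brightness as a covariate, or under a fixed animal block. Leaving out mustard ear 37 gave 3 calls and leaving out mustard ear 36 gave 11.

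Both of these pretreatments were also set against methylene chloride, and no call held under a fixed animal block. After dimercaprol 8 of the 36 genes were lower and 1 higher, on a background of 3.04% on array A (1.21% lower, 1.83% higher) and 0.73% on array B (0.336% lower, 0.394% higher). Elovl6 had 3690, 4836 and 5852 as lowest, median and highest in dimercaprol-pretreated ears, below every methylene chloride ear, and differed by -0.91 ± 0.16 (limma adjusted p = 0.000214). No other of the 36 genes was free of overlap, where 0.496% of all probe sets on array A and 0.128% on array B did not overlap. Cidea (-0.45), Cers4 (-0.53), Elovl3 (-0.44), Fasn (-0.49), Me1 (-0.46), Dgat1 (-0.40) and Scd1 (-0.34; second probe set -0.43, not called) were lower and Ugcg (0.57) higher. Dgat1 and Scd1 were not lower in mustard ears at these probe sets. Under a fixed animal block none was called, without dimercaprol ear 12 there were 3, and without ear 8, 10 or 11 there were 5.

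After octylhomovanillamide 4 genes were lower and none higher, on a background of 2.77% on array A (0.948% lower, 1.82% higher) and 0.539% on array B (0.214% lower, 0.325% higher). Elovl6 had 3681, 5688, 4434, 5763 and 5791 in pretreated ears 27, 28, 29, 30 and 33, again below every control, and differed by -0.84 ± 0.17 (limma adjusted p = 0.00165). Cidea (-0.42), Mc5r (-0.42) and Cers4 (-0.46) were the others. Cidea was also below every control, with a highest of 4595 against a lowest of 4673. Of all probe sets 0.634% on array A and 0.197% on array B did not overlap. None was called under a fixed animal block, 1 without ear 27 and 2 without ear 29. Without rescaling, the calls against methylene chloride fell to 1 after dimercaprol and none after octylhomovanillamide.

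Cell markers were also summed in the pretreated ears, where every range after indomethacin lay within that of mustard ears. Activated keratinocyte markers summed to 8470 to 46550 in dimercaprol-pretreated ears, 17354 to 65284 in octylhomovanillamide-pretreated ears and 44009 to 100781 in indomethacin-pretreated ears, against 28192 to 121355 in mustard ears. Neutrophil markers summed to 1700 to 18565, 2764 to 21148 and 10762 to 38110 in the same order, against 5673 to 41252 in mustard ears. Sebocyte markers on array A summed to 23177 to 27112 after dimercaprol, 20412 to 26168 after octylhomovanillamide and 20498 to 24521 after indomethacin, against 19270 to 26341 in mustard ears. Their part in the differences of the lipid genes was not tested. Of the 30 other sphingolipid and acylceramide genes, 16 were higher after dimercaprol, 11 after octylhomovanillamide and 6 after indomethacin than in mustard ears, and none was lower. Over all probe sets the shares called higher were 15.8%, 10.6% and 1.21% on array A in that order, and 9.37%, 6.55% and 2.39% on array B. Without mustard ears 5 and 37 the counts were 7, 2 and 0, and the shares of all probe sets under that fit are not given here.

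Between pretreatments, dimercaprol ears had higher Acaca (0.68 ± 0.15), Acsbg1 (0.77 ± 0.18), Acsl4 (0.69 ± 0.18) and Elovl6 (0.58 ± 0.20) than indomethacin ears, with limma adjusted p of 0.0110, 0.00621, 0.0101 and 0.0489. That is 4 of 36, on a background of 10.5% on array A (6.08% higher, 4.42% lower) and 1.78% on array B (1.08% higher, 0.701% lower). The members' share of 10.3% on array A is near that of all probe sets, and Acaca was the 1 gene called of 7 on array B. Under a fixed animal block none was called, without dimercaprol ear 9 or indomethacin ear 16 there were 2, and without indomethacin ear 18 there were 8. Octylhomovanillamide ears had higher Dgat2 than indomethacin ears, by 0.41 ± 0.11 (limma adjusted p = 0.0489), as the 1 gene called, on a background of 2.08% on array A (1.19% higher, 0.898% lower) and 0.0464% on array B (0.0174% higher, 0.029% lower). This call was lost under a fixed animal block, with the Gapdh ratio or brightness as a covariate, with eBayes without trend, without the filter, without rescaling and with the mean over probe sets. It was also lost when any of indomethacin ears 16, 17, 19 and 22 or octylhomovanillamide ears 27, 28, 30 and 33 was left out, while 3 genes were called without indomethacin ear 21 and 5 without ear 18. Fasn and Acsl4 of octylhomovanillamide ears were above every indomethacin ear without passing the test. In this comparison 1.79% of all probe sets on array A and 0.957% on array B did not overlap. Dimercaprol and octylhomovanillamide ears had no called difference among the 36 genes (0% of all probe sets on both arrays), with 1 gene at an unadjusted p below 0.05. The 3 drugs differed in dose and volume, and all comparisons with mustard or methylene chloride share those ears.

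Drugs without mustard left the 29 array A genes without a call. Each ethanol ear was the left ear of a drug-treated animal, and the fit did not pair it with that animal's right ear. No gene was called against ethanol ears after dimercaprol, octylhomovanillamide or indomethacin by limma, where 0% of all probe sets were called. At an unadjusted p below 0.05 there were 3, 3 and 1 genes. The share of all probe sets below that unadjusted threshold is not given here, so these counts are not read as a response. Elovl6 averaged 6014 ± 916 in dimercaprol ears, 6800 ± 1454 in octylhomovanillamide ears and 7573 ± 1160 in indomethacin ears, against 7614 ± 430 in ethanol ears (SD, n = 4, 5, 4 and 3). The estimate for dimercaprol was -0.35 ± 0.17, at an unadjusted p below 0.05 but not called. None of the 29 genes was called between ethanol ears and naive animals by limma, with none at an unadjusted p below 0.05 and 0% of probe sets called.

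**Figure D5:**
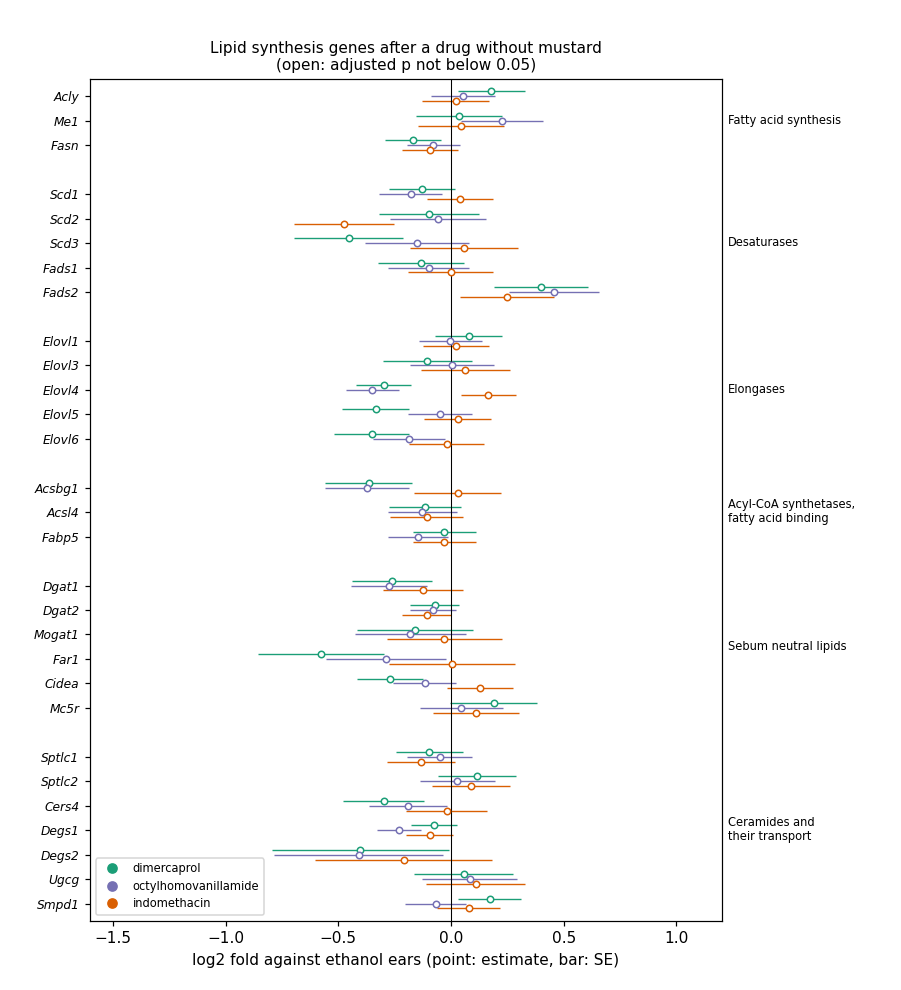
Log2 fold against ethanol ears of the 29 array A genes after each drug without mustard, with points as limma estimates and bars as SE. Every point is open, since no adjusted p was below 0.05; the estimates run between -0.58 and 0.46.

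Methylene chloride ears were also compared with naive ears, which came from separately numbered animals, so that treatment and animal set cannot be told apart. Far1 (0.98 ± 0.28) and Cidea (0.55 ± 0.12) were higher and Fads2 (-0.52 ± 0.16) and Mc5r (-0.39 ± 0.15) lower, 4 of 29 genes on a background of 21.5% (7.33% higher, 14.2% lower). Far1 averaged 1136 ± 320 in methylene chloride ears and 575 ± 225 in naive animals (SD, n = 21 and 3). The count was 2 without naive animal 501 or 502 and 1 without animal 503. Mc5r averaged 200 ± 24 in mustard ears, 265 ± 41 in methylene chloride ears and 349 ± 26 in naive animals (SD, n = 5, 21 and 3).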

How the data were processed

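RNA of mouse ear biopsies was hybridized to array A (64 ears) and array B (43 ears). The authors computed the deposited probe set intensity signals with MAS5, per the submitters' processing notes; its version, scaling and background settings are not given in the sources used here, and arrays give no depth. Probe sets were named from GEO's platform annotation: 20393 of 22690 on array A named 1 gene, 691 several and 1606 none, and 14674, 245 and 7656 of 22575 did on array B. Signals of an array were multiplied to give a 2% trimmed mean of 500, a pseudocount of 16 was added, and log2 values were taken for probe sets with a mean of at least 100 (15925 on array A, 17250 on array B), leaving out control probe sets. Models were fitted with limma 3.58.1 (lmFit, trended eBayes), run under R 4.3.3 after files were read by data.table (version 1.17.8), and tested on simulated data, and figures drawn with matplotlib 3.10.9 and pandas 2.3.3. Two-sided p-values were adjusted per array by Benjamini-Hochberg, with calls at 0.05. The mustard series shared 1 fit per array and the animals without mustard another, with naive ears averaged per animal. For methylene chloride against naive, every ear on array A entered 1 fit.

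The members and gene lists were chosen with earlier results of these data known. Values in every ear are given for up to 3 genes of each role with the smallest adjusted p in mustard against methylene chloride, and up to 3 genes of each further list are named by the same order. Replicates are ears of animals numbered in the labels. Left and right ears with 1 number come from the same animal; over 17 pairs their deviations from group means correlated across probe sets at 0.165 on average on array A (from -0.0954 to 0.441) and 0.068 on array B, against -0.0061 and -0.00257 for other animals. The fixed block rests on complete pairs, 4 mustard, 4 dimercaprol, 4 indomethacin and 5 octylhomovanillamide animals. Alternatives were the animal as a block, no rescaling, quantile normalization, a pseudocount of 64, other filters, eBayes without trend, other probe set choices, other controls for drugs alone, the Gapdh ratio or array brightness as a covariate, and leaving out ears.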

Additional observations from a re-analysis of the deposited data

Results flagged for a closer look

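Of 117 groups of 4 to 10 ears examined over the 18 genes with values in every ear, 11 held 1 ear far from the rest by Dixon's criterion. Chance gives about 1 in 20 groups. The genes were measured in the same ears, so the flags are not independent and no excess is read from their count. Elovl6 was 8260 in mustard ear 36, against 2575 to 3059 in the other mustard ears. Far2 was 23741 in dimercaprol-then-mustard ear 9, against 13636 to 16348 in the others of its group, and 13968 in octylhomovanillamide-then-mustard ear 27, against 16888 to 17935. Acaca was 3050 in indomethacin-then-mustard ear 18, against 1718 to 2015. Elovl5 was 1642 in dimercaprol-then-mustard ear 12, against 2570 to 2985, and Scd3 was 2798 in dimercaprol-then-mustard ear 6, against 811 to 1247. Among ears without mustard, Elovl3 was 4254 in dimercaprol ear 506, against 6168 to 6652, and Sptlc2 was 430 in dimercaprol ear 508, against 690 to 753. In octylhomovanillamide ears without mustard, Acsl4 was 589 in ear 519, against 412 to 443, Scd3 was 1359 in ear 519, against 1610 to 1680, and Smpd1 was 2483 in ear 517, against 3177 to 3430.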

How the results depend on the processing

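The precision is limited by 5 mustard ears, of which ears 5 and 37 were dim with a skewed Gapdh ratio, and by 3 ethanol ears. Calls of pretreated against mustard ears and the rises after mustard depended on settings, and the cause was not tested. Counts of called genes that moved by over 1.5 times were these. In mustard against methylene chloride (22 as reported), brightness as a covariate gave 13 and leaving out ears 5 and 37 gave 14. In dimercaprol then mustard against mustard (10), the Gapdh ratio gave 5, leaving out ears 5 and 37 gave 3, brightness and the fixed replicate block gave 0 each and no rescaling gave 30. In indomethacin then mustard against mustard (2), the Gapdh ratio, fixed block, brightness, quantile normalization and leaving out ears 5 and 37 gave 0 each, the random block, eBayes without trend, the mean over probe sets, no filter and a pseudocount of 64 gave 1 each, and no rescaling gave 10. In octylhomovanillamide then mustard against mustard (7), the Gapdh ratio, fixed block, brightness and leaving out ears 5 and 37 gave 0 each and no rescaling gave 31. Against methylene chloride, dimercaprol then mustard (9) gave 0 with the fixed block and 1 without rescaling, and octylhomovanillamide then mustard (4) gave 0 with the fixed block, 7 with the mean over probe sets and 0 without rescaling. Dimercaprol against indomethacin before mustard (4) gave 0 with the fixed block, 2 with brightness, 7 with the mean over probe sets and 7 without rescaling. Octylhomovanillamide against indomethacin before mustard (1) gave 0 with the Gapdh ratio, fixed block, brightness, eBayes without trend, no filter and no rescaling. Methylene chloride against naive (4) gave 2 with brightness, a minimum of 300, quantile normalization and no rescaling.

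Leaving out 1 ear at a time gave 17 to 24 calls for mustard against methylene chloride, 6 to 13 for dimercaprol, 0 to 5 for indomethacin and 3 to 11 for octylhomovanillamide before mustard against mustard. It gave 3 to 10, 24 to 25 and 1 to 5 for the same drugs in that order against methylene chloride, 2 to 8 for dimercaprol against indomethacin, 0 to 5 for octylhomovanillamide against indomethacin and 1 to 5 for methylene chloride against naive. It gave 0 to 0 for dimercaprol against octylhomovanillamide before mustard, for each drug alone and for ethanol. Among the genes with values in every ear, signs turned without rescaling for Fads3 (-0.10), Fabp5 (-0.089) and Sptlc2 (-0.27) in mustard against methylene chloride and for Fads3 (0.37), Elovl3 (0.76), Fabp5 (0.22), Sptlc2 (0.62) and Cers4 (0.76) in dimercaprol then mustard against mustard. Of the other called genes, Scd1 (-0.36) and Ugcg (-0.15) turned in the first comparison and Scd1 (0.31) and Abca12 (0.07) in the second, where all probe sets of array A shifted by a median of 0.86. With the fixed replicate block Smpd1 turned to 0.076 in mustard against methylene chloride and to -0.041 in dimercaprol then mustard against mustard. Smpd1 was the only called gene that turned under it in these 2 comparisons. The random block moved no other count by over 1.5 times.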
